A study of Mus musculus with 24 samples.

Results

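The genes described here are 35 mouse genes that sense foreign or misplaced nucleic acid, relay that signal, or are switched on by interferon. They were chosen by name, as the rows of each count table whose Ensembl identifier maps to one of 35 symbols in GENCODE release M21. All 35 were found among the 55487 gene rows. By role they comprise 7 sensors of RNA or DNA, 2 adaptors, 5 transcription factors, 3 enzymes that modify or degrade nucleic acid, 14 interferon-stimulated effectors, and 4 genes of feedback, chemokine signalling and antigen presentation.

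Total RNA was sequenced after rRNA depletion in 24 libraries from embryonic stem cells of the KH2 line, a mouse line made for doxycycline-inducible transgenes. All lines, controls included, hold TRE_DUX, a transgene from which doxycycline switches on DUX. DUX is the transcription factor that turns on genes and repeats of the 2-cell embryo. Each line was sequenced without doxycycline (DOX) and after 16 h of DOX, in 2 libraries each. A first set of 8 libraries holds a WT line and a line labelled DUXBL-KO. A second set of 16 libraries holds 2 WT lines and lines labelled TRIM24-KO and TRIM33-KO, all titled pLV2, a term the labels do not explain. Each genotype other than WT pLV2 is represented by 1 line, the labels do not tie either WT pLV2 line to a knockout, and nothing says that the 2 libraries of a group came from separate cultures. P-values therefore measure only the spread between these libraries. Cells were kept on gelatin or on growth-arrested embryonic fibroblasts, and the labels do not say which was used for a given line.

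Cells detect double-stranded RNA in the cytoplasm through RIG-I (gene Ddx58) and MDA5 (Ifih1), which signal through the adaptor MAVS, and DNA through cGAS (Mb21d1), which signals through STING (Tmem173). Both routes end in IRF3 and IRF7, which turn on interferon beta. Secreted interferon then acts through its receptor, JAK kinases and a complex that holds STAT2 and IRF9 on genes with an interferon-stimulated response element in their promoter, such as Isg15, Ifit1 and Mx1. Pluripotent cells are known for a weak interferon response. The comparison with and without DOX asks whether the rise of repeat transcripts is accompanied by this response in each line.

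The promoters of these genes show the sites through which interferon can act on some of them. RefSeq's promoter windows (GRCm38.p6) span 250 bases before to 50 after the start, 300 bases in all. The windows of a whole chromosome were left out of the search. Among the 29 members with a window searched, 14 held the core of the response element on either strand. That core is GAAA, any 2 bases and GAAA again, and 3.99% of the 27025 genes searched held it. Dhx58, Zbp1, Tmem173, Mx1, Mx2 and Usp18 had no window among those searched, so their promoters were not examined. The core of the DUX site, which is TGATT, any 2 bases and ATCA, searched on both strands, was in 0 of 29 windows and in 0.244% of the genes searched. The stretches below hold the core in capitals (TTTC, 2 bases and TTTC where it lies on the other strand, and a longer run of capitals where cores overlap), 5′ to 3′ on the gene's strand. The first 3 belong to classical interferon reporters that lay near 0 in every library, and the next 4 to members described below.

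Isg15, chr4:156200850-156200921, minus strand: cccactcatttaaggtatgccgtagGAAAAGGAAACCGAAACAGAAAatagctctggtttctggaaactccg

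Ifit1, chr19:34640760-34640838, plus strand: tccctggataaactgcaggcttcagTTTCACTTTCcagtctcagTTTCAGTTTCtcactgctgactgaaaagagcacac

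Ifit3, chr19:34583348-34583441, plus strand: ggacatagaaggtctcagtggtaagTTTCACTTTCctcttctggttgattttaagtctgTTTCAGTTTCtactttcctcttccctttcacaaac

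Stat2, chr10:128270251-128270310, plus strand: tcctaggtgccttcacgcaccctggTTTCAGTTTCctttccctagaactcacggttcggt

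Ddx58, chr4:40239807-40239848, minus strand: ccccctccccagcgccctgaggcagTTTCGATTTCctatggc

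Eif2ak2, chr17:78882545-78882579, minus strand: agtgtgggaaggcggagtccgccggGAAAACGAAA

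Oas1a, chr5:120907507-120907570, minus strand: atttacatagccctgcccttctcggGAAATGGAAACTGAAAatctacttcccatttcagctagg

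Isg15 held 3 overlapping cores, Oas1a 2 overlapping cores, and Ifit1 and Ifit3 2 separate cores each. Of the 14 members with a core, 5 stayed below the count filter. The presence of a core is a description of the window and not of binding.

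Libraries held 11784696 to 19136869 gene counts. Dux had 0 to 2 counts in every library titled without DOX and 20 to 110 counts in every library titled with DOX, which follows the titles although the treatment tag of 8 pLV2 libraries disagrees with them. Trim33 was lower in TRIM33-KO than in the mean of both WT pLV2 lines by a log2 difference of -2.61 ± 0.07 (SE, n = 2 libraries per group) without DOX. Trim24 stood at 120.3 to 137 CPM (counts scaled to the effective library size) in the libraries labelled TRIM24-KO, against 94.5 to 100.2 in WT pLV2 line 1 and 165 to 199 in line 2, and Duxbl1 in the line labelled DUXBL-KO did not differ from WT beyond the replicate spread (log2 difference -0.84 ± 0.97 without and 0.47 ± 0.69 with DOX, SE). The RNA level thus does not check those labels, and every direction given for these lines rests on the label. A single gene row, CT010467.1, took 30.4% of gene counts, 4051255 counts, in TRIM24-KO with DOX replicate 2. It held 1514818 counts in TRIM33-KO with DOX replicate 2 and 14855 to 118854 in the other libraries with DOX.

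DOX raised the repeats in all 6 lines. MERVL-int, the internal part of the endogenous retrovirus that marks the 2-cell stage, lay between 91.3 and 239 CPM without DOX and between 9902 and 89941 CPM with it. Its log2 fold change was 6.83 ± 0.44 (SE) for WT, 7.39 ± 0.45 for DUXBL-KO, 7.06 ± 0.20 for WT pLV2 line 1, 9.04 ± 0.22 for line 2, 7.88 ± 0.21 for TRIM24-KO and 9.49 ± 0.22 for TRIM33-KO. Repeats took 7.58% to 11.8% of all counts without DOX and 10.2% to 23.0% with DOX. Of the repeat subfamilies tested, WT had 88 of 981 called higher, DUXBL-KO 287 of 981, WT pLV2 line 1 591 of 965, line 2 693, TRIM24-KO 540 and TRIM33-KO 747 (edgeR quasi-likelihood test, adjusted p under 0.05). The tests of genes below use the same model, with p-values adjusted over all genes tested in the comparison.

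The interferon genes themselves gave almost no reads. Ifnb1, which encodes interferon beta, had 0 counts in all 24 libraries, with and without DOX. A count of 0 allows up to 3 counts, which is 0.157 to 0.255 CPM in these libraries. Of 11 interferon genes looked at, 7 had 0 counts in every library. Ifnab had 0 counts in all without DOX and 5 with DOX, at most 1 per library. Ifnk had 0 and 3, the 3 in a single library, and Ifnl2 had 1 and 0. The largest signal was Ifng, the gene of interferon gamma, with 0 counts in all 12 libraries without DOX and 22 counts in all over the 12 with DOX. The 2 libraries of each line with DOX held 2 and 2 (DUXBL-KO), 1 and 4 (WT pLV2 line 1), 1 and 7 (line 2), 1 and 3 (TRIM24-KO) and 1 and 0 (TRIM33-KO), and both WT libraries held 0. These counts were too low for the test, and the value of 7 came from a single library.

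In both sets, 10 members lay below the count filter. Several interferon-stimulated effectors are among them, while 8 of the 14 effectors were tested in the pLV2 set. The 10 were Ifih1, Irf7, Isg15, Isg20, Ifit1, Ifit3, Mx1, Mx2, Usp18 and Cxcl10, each with 10 counts or fewer in every library, and 9 of them with 6 or fewer. Isg15, the ubiquitin-like interferon reporter, had 6 counts over the 12 libraries without DOX and 5 over the 12 with DOX. Ifit1, which binds foreign RNA ends, had 6 and 10, and its relative Ifit3 had 2 and 4.

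The antiviral GTPase genes gave 16 and 14 counts for Mx1 and 12 and 11 for Mx2. Usp18, which removes ISG15 and dampens receptor signalling, had 11 and 7 counts, and the chemokine gene Cxcl10 had 19 and 23. For the RNA sensor gene Ifih1 the totals were 11 without and 3 with DOX, and for the transcription factor gene Irf7 they were 7 and 19. No member of this group exceeded 10 counts in any library with DOX.

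Summed over these 10 genes, a library held 4 to 18 counts without DOX (median 11.5) and 8 to 18 with DOX (median 13.5). In CPM, the sum had a median of 0.654 CPM without DOX and 1.13 CPM with DOX. In the first set the ranges overlapped or lay lower with DOX, at 0.790 to 0.931 CPM against 0.711 to 0.780 in WT and at 0.539 to 0.588 against 0.437 to 0.657 in DUXBL-KO. In the pLV2 set the libraries with DOX lay above those without in every line. WT pLV2 line 1 had 0.257 and 0.412 CPM without and 0.908 and 1.14 with DOX, and line 2 had 0.858 and 0.872 without and 1.12 and 1.37 with DOX. In TRIM24-KO it was 0.721 and 1.04 without and 1.16 and 2.03 with DOX, and in TRIM33-KO 0.432 and 0.547 without and 1.41 and 1.51 with DOX. Scaled to gene and repeat counts together, the TRIM24-KO libraries overlapped, at 0.701 to 1.02 without and 0.986 to 1.08 with DOX, and the other 3 pLV2 lines did not. Isg20, with 20 counts without and 51 with DOX over the pLV2 set, and Irf7, with 2 and 15, held the largest differences in counts. Of the others over that set, Isg15 went from 6 to 1, Ifih1 from 8 to 2 and Usp18 from 11 to 6. Mx1 went from 15 to 11 and Ifit1 from 4 to 3. Cxcl10 went from 16 to 19, Mx2 from 10 to 11 and Ifit3 from 0 to 1. The rise of the sum was thus not shared by all 10. In the first set Isg20 had 28 and 17, and Irf7 5 and 4.

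**Figure D1:**
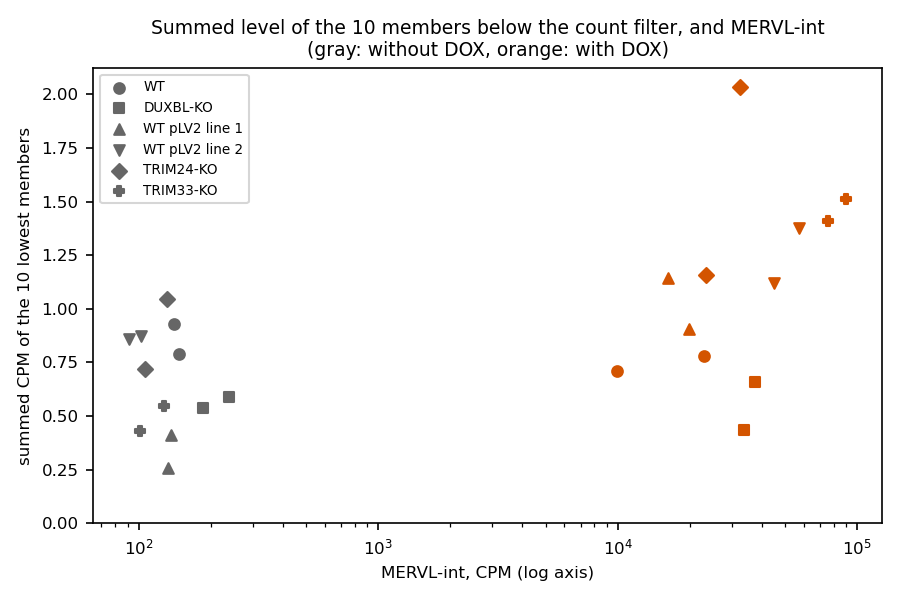
Summed level of the 10 members below the count filter (vertical axis, CPM) against MERVL-int (horizontal log axis, CPM), 1 point per library, with line by marker and DOX by colour. The sum stays between 0.257 and 2.03 CPM while MERVL-int spans 91.3 to 89941 CPM.

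Isg20, an exonuclease gene that interferon and other stimuli can induce, was singled out after its values were seen. In WT pLV2 line 2 it had 4 and 0 counts without DOX and 9 and 8 with DOX, a ratio of 5.93 (95% exact counting interval 1.93 to 24.2). TRIM33-KO had 0 and 1 counts without and 9 and 6 with DOX, a ratio of 30 with a counting interval of 4.62 to 1263. Intervals of this kind cover counting error only.

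The other lines did not show it beyond counting error. WT pLV2 line 1 had 2 and 2 counts without and 7 and 1 with DOX (ratio 2.29, 0.612 to 10.4), and TRIM24-KO had 4 and 7 without and 5 and 6 with DOX (1.70, 0.668 to 4.32). WT had 5 and 8 without and 7 and 3 with DOX (0.646, 0.254 to 1.59), and DUXBL-KO 5 and 10 without and 3 and 4 with DOX (0.519, 0.179 to 1.35). With no filter on low counts, edgeR called Isg20 higher in line 2 (adjusted p = 0.0218) and in TRIM33-KO (adjusted p = 0.000196), and it called none of the other 9 in any DOX effect.

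**Figure D2:**
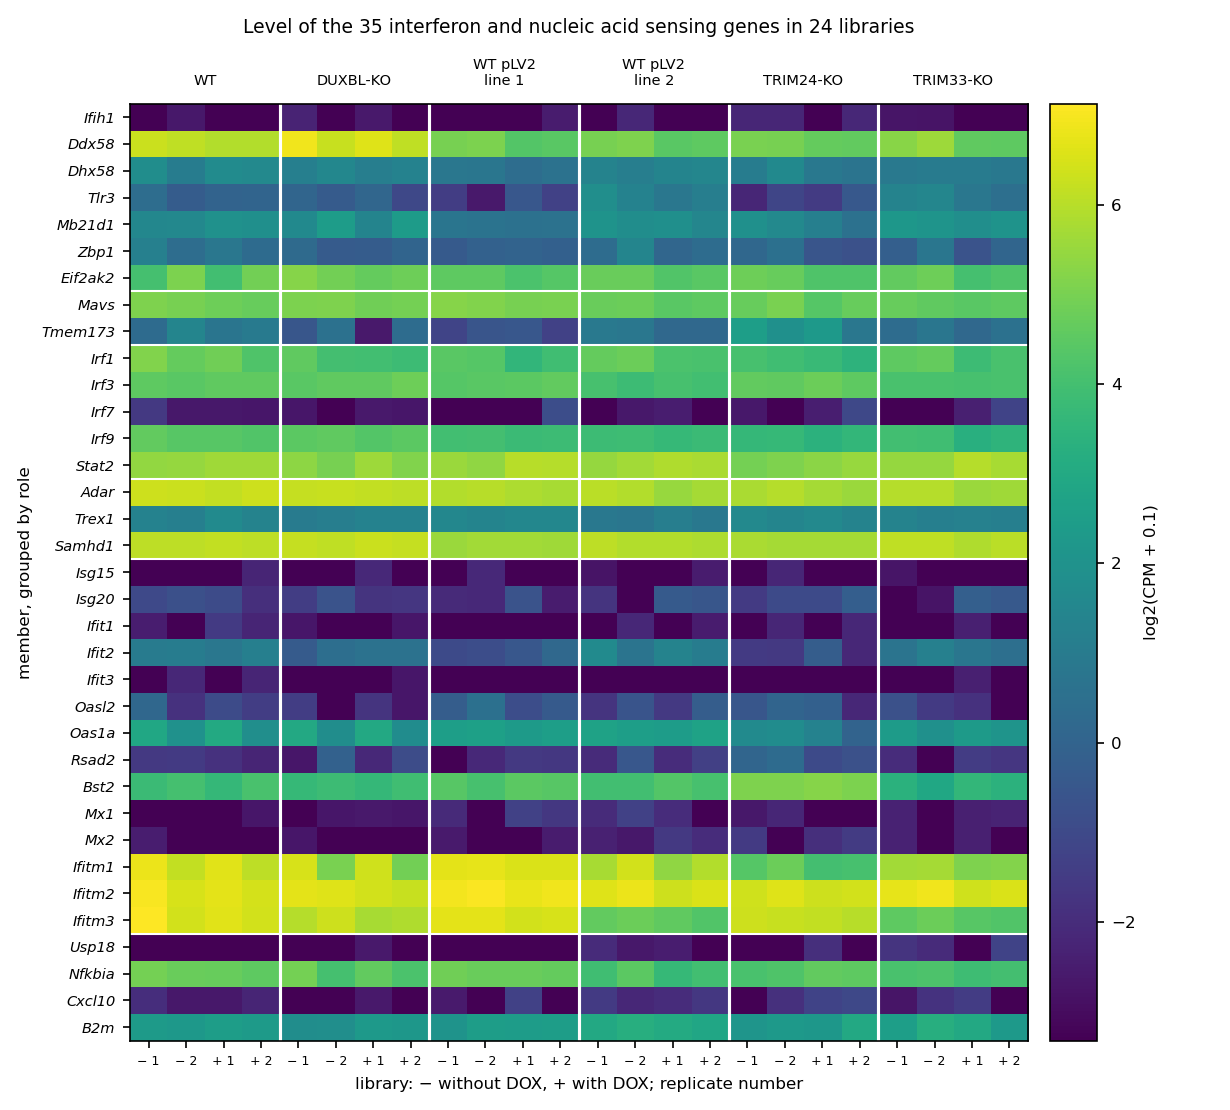
Level of each member as log2(CPM + 0.1) (colour), with members in rows grouped by role and the 24 libraries in columns (− without DOX, + with DOX, then the replicate number). Rows such as Isg15, Ifit1, Ifit3, Mx1 and Usp18 stay dark in every column, while Ifitm1, Ifitm2, Ifitm3, Adar and Samhd1 are high throughout.

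The members that passed the count filter came from every role. Per kilobase of exon, the mean level over all libraries was highest for Ifitm2, Ifitm3 and Ifitm1 (152, 93.8 and 56.2 CPM per kb), genes of membrane proteins that block virus entry. Bst2, the gene of tetherin, stood at 20.4 CPM per kb and Nfkbia, which encodes an inhibitor of NF-kappa-B, at 13.4. Mavs, Stat2, Adar, Samhd1, B2m, Ddx58 and Irf3 lay between 6.17 and 8.49 CPM per kb. The members below the filter lay between 0.00456 (Ifih1) and 0.187 (Isg20) CPM per kb, so the 2 cytoplasmic RNA sensors differed widely, with Ddx58 at 6.45 and Ifih1 near 0.

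Of the 35 members, 23 were tested in the first set and 25 in the pLV2 set, where Oasl2 and Rsad2 passed as well. With DOX, no tested member passed the test in WT or in the line labelled DUXBL-KO, with or without the replicate number as a block. By edgeR, 0 of 23 were called in WT, where 2.98% of all genes were called, and 0 of 23 in DUXBL-KO, where 4.92% were. The 538 genes called in WT fell to 117 without WT without DOX replicate 1, to 2 without replicate 2 and to 1 with only the compared groups. At an unadjusted p under 0.05, 1 member passed in each, Mavs lower in WT and B2m higher in DUXBL-KO, against 1942 and 2524 of all 18060 genes tested, and DESeq2 called 0 in both. The 95% interval lay wholly below a log2 fold change of 1 for 18 of 23 members in WT and 19 of 23 in DUXBL-KO. The exceptions in WT were Tmem173, Ifitm1, Tlr3, Mb21d1 and Oas1a, and in DUXBL-KO Tmem173, Ifitm1, Ifit2 and Oas1a. The spread between replicates was wider in this set, with a common coefficient of variation of 17.6% against 8.73% in the pLV2 set.

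In the pLV2 lines a few members changed, and all but 1 of those were lower with DOX. WT pLV2 line 1 had 3 of 25 called, 1 higher and 2 lower, against 16.1% of all genes called and 6.12% called lower. WT pLV2 line 2 had 5 of 25 called, all lower, against 26.5% and 13.8%. The line labelled TRIM24-KO had 5 of 25 called, 1 higher and 4 lower, against 16.3% and 4.88%. TRIM33-KO had 9 of 25 called, 1 higher and 8 lower, against 36.4% and 20.0%. The members' share of calls was near that of all genes in each line, at 12%, 20%, 20% and 36%. Their share called lower was 8%, 20%, 16% and 32%, which is a few genes per line. Its difference from the share of all genes called lower was not tested. Over all genes, 1801, 2289, 2060 and 2961 of 18079 were called higher in these lines. The counts of members moved with single libraries and settings. Line 2 had 3 called without its replicate 2 without DOX or its replicate 1 with DOX, TRIM24-KO had 1 and 3 without replicate 1 or 2 without DOX and 2 without replicate 2 with DOX, and TRIM33-KO had 5 without replicate 1 with DOX. With only the compared groups the counts were 5 in line 1, 2 in line 2 and 2 in TRIM24-KO, and DESeq2 called 3 in TRIM24-KO.

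The median log2 fold change of tested members was -0.12, -0.26, -0.24 and -0.24 in line 1, line 2, TRIM24-KO and TRIM33-KO, against -0.03, -0.07, -0.00 and -0.09 for all genes tested. In WT and DUXBL-KO it was -0.08 and -0.13, against -0.01 and -0.01. The split over all genes moved with the scaling: 47.8% of all calls in line 2 and 45.1% in TRIM33-KO were higher, and 59.7% and 56.7% with median-of-ratios factors, under which 4 members (1 higher, 3 lower) and 8 members (2 higher, 6 lower) were called. With library sizes that include repeats it moved the other way, to 38.0% and 37.1%, and 9 and 10 members were called.

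**Figure D3:**
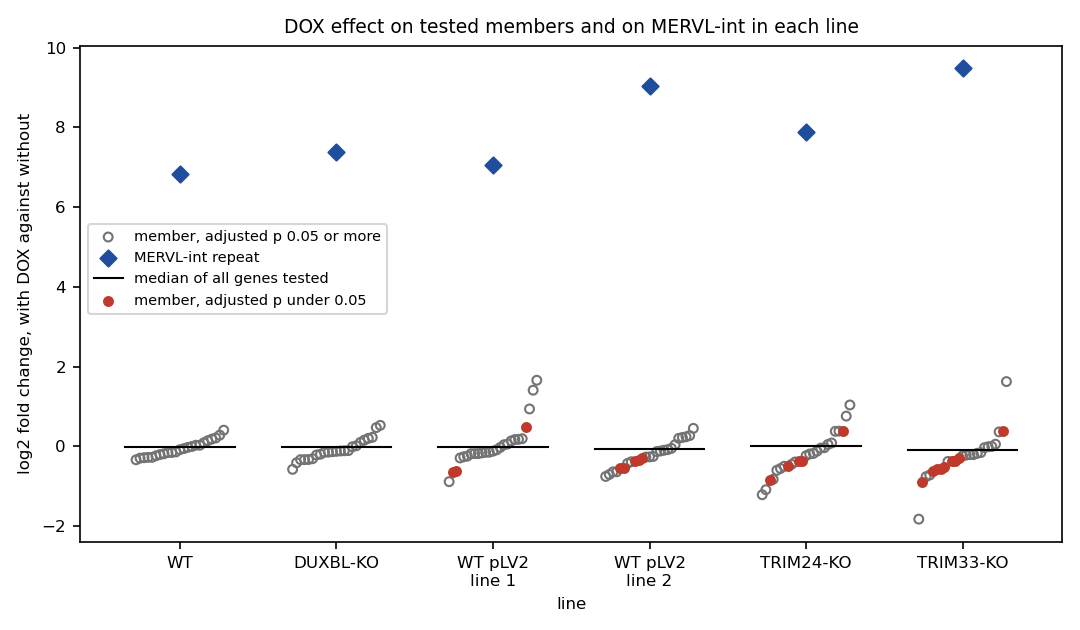
Log2 fold change with DOX (vertical axis) in each of the 6 lines for the tested members (circles, filled red where called), for MERVL-int (blue diamonds) and for the median of all genes tested (black lines). MERVL-int lies between 6.83 and 9.49, and the members lie between -1.83 and 1.66.

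Among the sensors, Ddx58 (chromosome 4, 40203773 to 40239828, GRCm38), the gene of RIG-I, was lower with DOX in all 4 pLV2 lines. It stood at 31.4 and 33.3 CPM without and 19.8 and 22.0 CPM with DOX in WT pLV2 line 1, and at 31.5 and 34.4 without and 21.8 and 23.0 with DOX in line 2. In TRIM24-KO the values were 32.4 and 31.6 without and 24.8 and 24.5 with DOX, and in TRIM33-KO 38.0 and 48.6 without and 23.7 and 23.1 with DOX. In none of these lines did the libraries with and without DOX overlap.

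The log2 fold changes of Ddx58 were -0.63 ± 0.11 (SE, n = 2 per group; adjusted p = 0.000787) in line 1, -0.55 ± 0.11 (adjusted p = 0.0013) in line 2, -0.37 ± 0.11 (adjusted p = 0.0338) in TRIM24-KO and -0.89 ± 0.11 (adjusted p = 9.59e-06) in TRIM33-KO by edgeR. Leaving out any 1 of the 4 TRIM24-KO libraries ended that call (adjusted p 0.0739 to 0.133), and no alternative ended the other 3. In WT the values were 77.3 and 69.8 without and 59.8 and 59.9 with DOX (-0.30 ± 0.23, not called). In DUXBL-KO they were 118 and 75.8 without and 96.8 and 70.1 with DOX (-0.22 ± 0.22, not called), where the groups overlapped. Without DOX, Ddx58 was higher in TRIM33-KO than in the mean of both WT pLV2 lines by 0.41 ± 0.09 (adjusted p = 0.00329), a call that ended without replicate 2 of TRIM33-KO without DOX (adjusted p = 0.128).

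Eif2ak2 (chromosome 17, 78852564 to 78882573), the gene of the kinase PKR that stops translation on double-stranded RNA, was called lower in 3 lines. In WT pLV2 line 2 it fell from 26.9 and 26.2 CPM to 19.4 and 22.1 with DOX (-0.36 ± 0.11, adjusted p = 0.0235, edgeR). TRIM24-KO went from 27.8 and 25.8 to 19 and 18.8 (-0.50 ± 0.12, adjusted p = 0.00598), and TRIM33-KO from 24.3 and 28 to 16.3 and 19 (-0.58 ± 0.11, adjusted p = 0.000886). The libraries did not overlap in any of the 3.

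WT pLV2 line 1 had 22.8 and 23.2 CPM without and 17.7 and 20.7 with DOX (-0.26 ± 0.11, adjusted p = 0.14). WT had 16.4 and 32.9 without and 15.3 and 29.5 with DOX, so that its replicates differed more than its conditions, and DUXBL-KO had 37.4 and 30 without and 25.1 and 28.5 with DOX. The call in line 2 ended with median-of-ratios factors (adjusted p = 0.0606), with DESeq2 (0.129), with only the compared groups (0.132), and without line 2 without DOX replicate 1 (0.133), replicate 2 (0.0928) or line 2 with DOX replicate 1 (0.204). The TRIM24-KO call ended without its replicate 1 without DOX (0.0562).

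The DNA sensor gene Mb21d1 (cGAS) was called in TRIM24-KO only in the DOX effects, at 3.72 and 2.90 CPM without and 2.15 and 1.40 with DOX (-0.85 ± 0.27, adjusted p = 0.0421). That call ended without TRIM24-KO without DOX replicate 1 (adjusted p = 0.231) or with DOX replicate 2 (0.267), with DESeq2 (0.134), with only the compared groups (0.16) and with no count filter (0.0501). The remaining tested sensor genes were Dhx58, whose product LGP2 regulates RIG-I and MDA5, Tlr3, and Zbp1, whose product binds left-handed nucleic acid. They had 12 to 54, 1 to 71 and 4 to 42 counts per library, and were called in no DOX effect. The adaptor gene Mavs was called in TRIM24-KO, at 26.1 and 32.5 CPM without and 20.4 and 25.7 with DOX (-0.36 ± 0.12, adjusted p = 0.0493), near the threshold. It lost the call without TRIM24-KO without DOX replicate 2 (log2 fold change -0.23) and without TRIM24-KO with DOX replicate 1 (-0.21). The call of Mavs also ended with DESeq2 (adjusted p = 0.052), with a minimum mean of 10 counts (0.0524) and with only the compared groups (0.2). Tmem173, the gene of STING, was called in no DOX effect.

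Stat2 was the only member called higher in any DOX effect. Under other settings Isg20 (line 2 and TRIM33-KO) was also called higher, with no count filter or without 1 library, and so was Bst2 in TRIM33-KO, with median-of-ratios factors (0.43, adjusted p = 0.0495), with the replicate block (0.36, adjusted p = 0.0489) or without replicate 1 without DOX (0.62, adjusted p = 0.0182). STAT2 is the subunit that carries the transactivation domain of the interferon-induced complex. Its gene (chromosome 10, 128270559 to 128292849) stood at 47.3 and 42.1 CPM without and 63.5 and 62.5 with DOX in WT pLV2 line 1. In TRIM24-KO it stood at 30.3 and 34.1 without and 39.2 and 45.4 with DOX, and in TRIM33-KO at 44.5 and 44.5 without and 61.7 and 53.7 with DOX. The libraries with DOX lay above those without in all 3 lines.

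The log2 fold changes of Stat2 were 0.50 ± 0.10 (adjusted p = 0.00199), 0.38 ± 0.10 (adjusted p = 0.0181) and 0.38 ± 0.10 (adjusted p = 0.00701) in line 1, TRIM24-KO and TRIM33-KO by edgeR. WT pLV2 line 2 had 44.2 and 51.7 without and 59.2 and 56.2 with DOX, a difference of 0.27 ± 0.10 (adjusted p = 0.0517) that passed with median-of-ratios factors (adjusted p = 0.0229). WT had 42.9 and 44.8 without and 49.6 and 49.9 with DOX (0.18 ± 0.18), and DUXBL-KO 40.6 and 31.3 without and 47.7 and 34.9 with DOX (0.20 ± 0.18), neither called. The TRIM24-KO call ended without its replicate 1 without DOX (0.156) or its replicate 2 with DOX (0.171) and with only the compared groups (0.0599), and the TRIM33-KO call ended without its replicate 1 with DOX (0.126).

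Irf9, the DNA-binding subunit of the complex, was lower with DOX in TRIM33-KO, from 15.5 and 14.9 CPM to 9.60 and 11.1 (-0.56 ± 0.12, adjusted p = 0.00109), and was not called in the other 5 lines.

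Irf1 (chromosome 11, 53770014 to 53778374), a transcription factor gene that interferon gamma induces, was called lower in 3 lines. It stood at 21.7 and 20.3 CPM without and 11.6 and 15.1 with DOX in WT pLV2 line 1 (-0.65 ± 0.14, adjusted p = 0.00286, edgeR), and at 24.8 and 27.1 without and 18 and 17.5 with DOX in line 2 (-0.55 ± 0.13, adjusted p = 0.00434). TRIM33-KO had 23.3 and 25 without and 14.4 and 17.2 with DOX (-0.62 ± 0.13, adjusted p = 0.00171). In these 3 lines the libraries with DOX lay below those without.

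TRIM24-KO had 17.1 and 15.1 without and 13.4 and 10.8 with DOX (-0.39 ± 0.14, adjusted p = 0.0776). WT had 35.2 and 25 without and 28.8 and 18.8 with DOX, and DUXBL-KO 23.8 and 16.0 without and 15.6 and 14.3 with DOX. The call in line 1 ended without line 1 replicate 1 without DOX (0.053) or with DOX (0.0651), and the call in line 2 ended without line 2 replicate 2 without DOX (0.0517). Irf3 was called in no DOX effect, with log2 fold changes from -0.01 to 0.16.

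**Figure D4:**
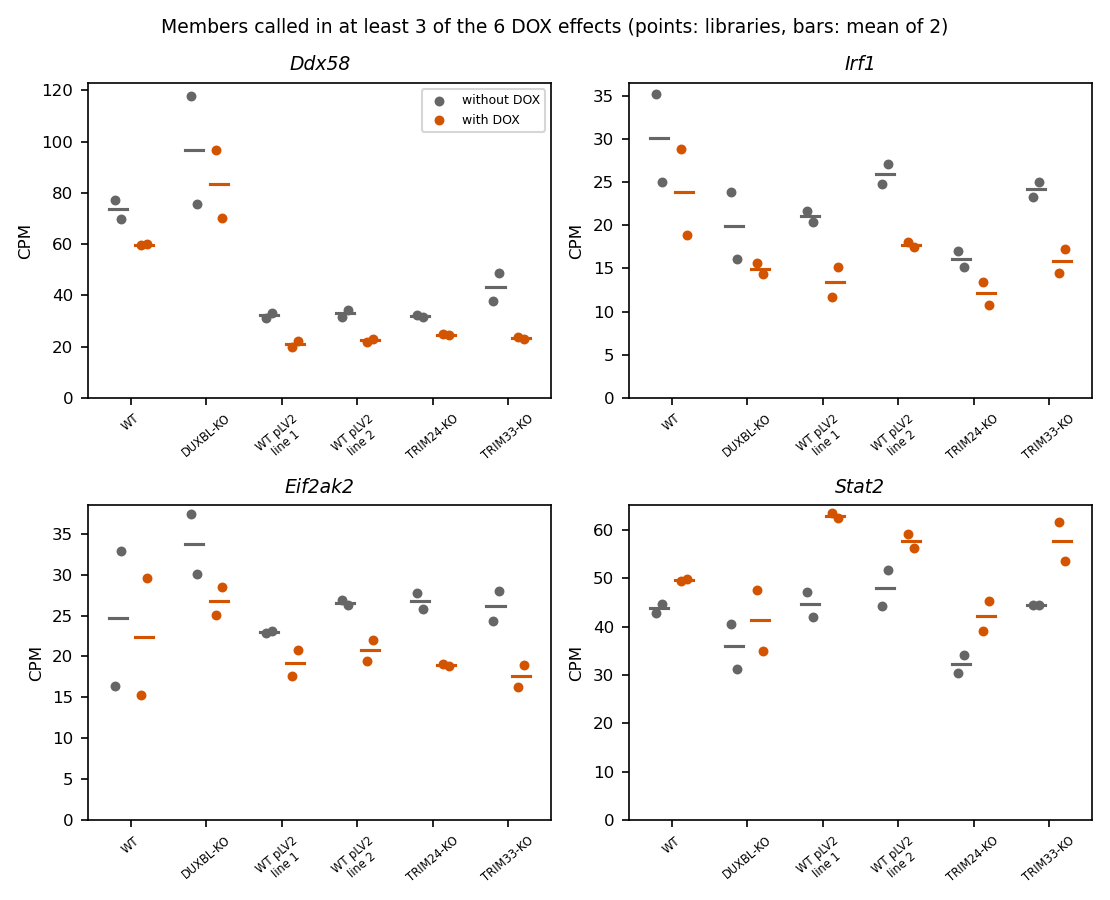
CPM of Ddx58, Irf1, Eif2ak2 and Stat2 (vertical axes from 0) in each line, without DOX (gray) and with DOX (orange). Points are libraries and bars are means of 2; Ddx58, Irf1 and Eif2ak2 lie lower and Stat2 higher with DOX in the pLV2 lines.

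Of the enzymes that act on nucleic acid, Adar, the gene of the editing enzyme that marks cellular double-stranded RNA as self, was called lower in WT pLV2 line 2 and TRIM33-KO. It went from 65.0 and 60.6 CPM to 45.6 and 52.9 in line 2 (-0.35 ± 0.09, adjusted p = 0.006) and from 62.8 and 61.9 to 47.1 and 49.5 in TRIM33-KO (-0.37 ± 0.09, adjusted p = 0.00341), without overlap. The line 2 call ended without line 2 replicate 1 without DOX (0.0861) or with DOX (0.108) and with only the compared groups (0.1). The nuclease gene Trex1 and the dNTPase gene Samhd1 were called in no DOX effect, with log2 fold changes from -0.18 to 0.28.

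Among the 14 effectors, 8 were tested in the pLV2 set and none was called higher with DOX. Over all genes, 1801 to 2961 of 18079 were called higher in a pLV2 line, and 8 genes are too few to set against that share. The calls were Ifitm2 in line 2 (-0.29 ± 0.10, adjusted p = 0.0331) and Ifitm1, Ifitm2 and Ifitm3 in TRIM33-KO (-0.53 ± 0.18, -0.37 ± 0.10 and -0.30 ± 0.11; adjusted p = 0.031, 0.00635 and 0.0452). The 3 genes lie within the same cluster on chromosome 7, Ifitm2 at 140954837 to 140955987, Ifitm1 at 140967221 to 140969825 and Ifitm3 at 141009586 to 141010770. Reads shared by such near copies cannot be assigned with certainty, and how the counting treated them is not given in the sources used here.

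Most of these calls depended on the setting. The line 2 call of Ifitm2 ended with median-of-ratios factors (adjusted p = 0.091), without CT010467.1 (0.0512), with DESeq2 (0.102) and with only the compared groups (0.181). It also ended without line 2 replicate 2 without DOX (log2 fold change -0.16) or replicate 1 with DOX (-0.21). In TRIM33-KO, the Ifitm1 call ended with median-of-ratios factors (adjusted p = 0.0633) and with DESeq2 (0.144). It also ended when any 1 of its 4 libraries was left out (log2 fold change -0.54 to -0.49). The Ifitm2 call there ended without replicate 2 without DOX (-0.27) or replicate 1 with DOX (-0.29). The Ifitm3 call ended without replicate 2 without DOX (-0.16), replicate 1 with DOX (-0.37) or replicate 2 with DOX (-0.18). Ifitm3 also lost its call with median-of-ratios factors (adjusted p = 0.129), DESeq2 (0.184), only the compared groups (0.208), a minimum mean of 10 counts (0.0542), without CT010467.1 (0.0619) and with the replicate block (0.0505). Of the other tested effectors, Oasl2, a relative of the OAS genes, had 0 to 21 counts per library and was called in no DOX effect. Nfkbia and B2m were called in no DOX effect either, but Nfkbia was lower in line 2 with no count filter (-0.38, adjusted p = 0.0413), with library sizes that include repeats (-0.44, adjusted p = 0.037) and without line 2 replicate 1 without DOX (-0.62, adjusted p = 0.00335). With no count filter Ifitm1 was called lower in line 2 (-0.42, adjusted p = 0.000182) and TRIM24-KO (-0.59, adjusted p = 9.2e-06), and Irf1 (-0.43, adjusted p = 0.0464) and Oas1a (-0.86, adjusted p = 0.048) in TRIM24-KO. Without TRIM24-KO replicate 1 with DOX, Tmem173 was called lower there too (-1.51, adjusted p = 0.0266), as were Irf1, Adar and Oas1a.

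The DOX effect on the members did not differ between lines past the threshold. The interaction subtracts the reference's DOX effect from that of a line. It gave 0 of 23 members for DUXBL-KO against WT (0.0% of all genes called), 0 of 25 for TRIM24-KO (0.387%) and 0 of 25 for TRIM33-KO (0.553%), both against the mean of the WT pLV2 lines. For WT pLV2 line 2 against line 1 it was 0 of 25 (0.243%). At an unadjusted p under 0.05, 0, 1, 2 and 1 members passed, against 0.537%, 8.49%, 9.74% and 7.66% of all genes, namely Nfkbia in TRIM24-KO (0.62 ± 0.18), Irf9 (-0.44 ± 0.14) and Ddx58 (-0.29 ± 0.14) in TRIM33-KO, and Tlr3 in line 2 (-2.05 ± 0.82). DESeq2 called 0 in all 4. A member called in one line and not in another is therefore not shown to respond differently there.

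Most calls among the wider pathway were lower too, though the share called in either direction lay near or below that over all genes. The share called lower lay above that of all genes called lower. That difference was not tested, and the split over all genes moved with the scaling. Of 67 other genes of the pathway, 40 were tested in the first set and 41 in the pLV2 set. None was called with DOX in WT or DUXBL-KO (2 and 1 at an unadjusted p under 0.05; DESeq2 called 0 in both). In WT pLV2 line 1, 4 of 41 were called, all lower, where 16.1% of all genes were called and 6.12% called lower. In line 2 it was 12, all lower (26.5% and 13.8% of all genes). In TRIM24-KO 1 was higher and 4 lower (16.3% of all genes called in either direction and 4.88% called lower). In TRIM33-KO 1 was higher and 13 lower (36.4% called in either direction and 20.0% called lower). The gene called higher in both knockouts was Jak1, which encodes a kinase of the receptor (0.25 ± 0.08 and 0.26 ± 0.08).

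Receptor genes were among those that fell in 3 lines each. Ifnar2, a chain of the interferon alpha and beta receptor, fell in line 1, line 2 and TRIM33-KO by 0.63 ± 0.20, 0.63 ± 0.18 and 0.81 ± 0.20 on the log2 scale, and in TRIM24-KO its change was -0.41 ± 0.23 (adjusted p = 0.264). Ifngr2, a chain of the interferon gamma receptor, fell in the same 3 lines by 0.85 ± 0.23, 0.72 ± 0.25 and 0.96 ± 0.26. Parp14, an interferon-inducible ADP-ribosyltransferase gene, fell there by 0.59 ± 0.16, 0.57 ± 0.15 and 0.96 ± 0.16.

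Zc3hav1, the gene of the antiviral protein ZAP, which binds CpG-rich RNA, fell in line 2, TRIM24-KO and TRIM33-KO by 0.27 ± 0.06, 0.19 ± 0.06 and 0.29 ± 0.06, as did Nfkb1, an NF-kappa-B subunit gene, by 0.41 ± 0.10, 0.31 ± 0.09 and 0.41 ± 0.10. In line 2 and TRIM33-KO, further falls were seen in Socs3, a feedback inhibitor of cytokine receptors (0.51 ± 0.07 and 0.55 ± 0.07), in Traf3 (0.32 ± 0.10 and 0.51 ± 0.11) and in Tbk1, which encodes the kinase that activates IRF3 (0.35 ± 0.09 and 0.39 ± 0.10). The DOX effect on Socs3 differed between WT pLV2 line 2 and line 1 by -0.62 ± 0.10 (adjusted p = 0.0115), with 0.11 ± 0.07 in line 1. For the other 7 of these genes no interaction passed the threshold.

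Markers of other cells give the setting for these values. Summed over 19 fibroblast markers, a library held 71.4 to 230 CPM without DOX and 79.5 to 252 with DOX, led by Vim, Col5a1 and Thy1. Vim had the highest mean, at 105 CPM over all libraries, and Col5a1 and Thy1 had 17.6 and 13.0 CPM. Col3a1, Prrx1, Dcn, S100a4, Postn, Fap and Lum had means of 0.0025 to 0.0315 CPM. Per library, 6 to 9 of the markers had 0 counts without DOX and 5 to 8 with DOX. How far the sum follows fibroblast content was not tested. The sums were 112 to 122 CPM without and 108 to 111 with DOX in WT pLV2 line 1, 180.2 to 188 and 153 to 170 in line 2, 71.4 to 92.2 and 79.5 to 86.9 in TRIM24-KO, and 175 to 185 and 155 to 165 in TRIM33-KO. Single markers moved with DOX. Of 10 tested, 2 were called in line 1 (Fbn1 1.30 and Thy1 0.97), 3 in line 2 (Fbn1 0.52, Col1a2 1.43 and Pdgfrb -0.93), 2 in TRIM24-KO (Col1a1 1.96 and Thy1 0.74) and 4 in TRIM33-KO (Col1a1 0.78, Fbn1 0.72, Col1a2 1.41 and Pdgfrb -0.93). These are log2 fold changes (edgeR), and the markers were named after their values were seen. In WT and DUXBL-KO 0 were called, and 0 and 1 passed at an unadjusted p under 0.05. Their part in the DOX effects was not tested. Between lines the sums differed. Their part in the differences between lines described next was not tested, and fewer cells of a type and less RNA per cell cannot be told apart in these bulk libraries. The sum of 8 pluripotency markers was 3795 to 5214 CPM without and 3317 to 5031 with DOX. Of the 8, with DOX 2 were called in line 1 (1 higher, 1 lower), 5 in line 2 (1 higher, 4 lower), 4 in TRIM24-KO (all lower) and 5 in TRIM33-KO (1 higher, 4 lower), with the largest fall at -0.71 on the log2 scale, and 0 in WT and DUXBL-KO. Against the WT mean, 7 of 8 were called in TRIM24-KO and 4 of 8 in TRIM33-KO without DOX (edgeR), and their part in the members' differences was not tested. The sum of 6 immune cell markers was 13.2 to 31.5 CPM without and 11.7 to 32.5 with DOX. Cd68 led it, at 9.17 to 31.2 CPM, while Adgre1 had 0 counts in every library and Ptprc 0 to 4.

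Lines were also compared at the same DOX state. Against WT, the line labelled DUXBL-KO had 0 of 23 members called without DOX, where 0.0388% of all genes were called, and 0 of 23 with DOX, where 0.072% were. The genes behind those shares, 7 and 13, became 402 and 459 with the replicate block, 545 and 837 with no count filter and 177 and 172 with DESeq2. At an unadjusted p under 0.05, 3 and 2 members passed, against 8.91% and 10.1% of all genes, and DESeq2 called 0 in both. With no count filter, Ifitm1 and Ifitm3 were called lower without DOX (-0.59 and -0.64) and Irf1, Ifitm1 and Ifitm3 with DOX (-0.68, -0.60 and -0.72).

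Against the mean of both WT pLV2 lines, the line labelled TRIM24-KO had 12 of 25 called without DOX (5 higher, 7 lower; 43.2% of all genes called) and 10 of 25 with DOX (4 higher, 6 lower; 40.6%). TRIM33-KO had 8 of 25 without DOX (4 higher, 4 lower; 23.6%) and 5 of 25 with DOX (1 higher, 4 lower; 26.6%). The WT pLV2 lines differed from each other too, in a comparison added after the data were seen: 14 of 25 members were called between line 2 and line 1 without DOX (7 higher, 7 lower; 38.1%). Leaving out any 1 library lowered this to 7 to 10, with 7 without line 1 replicate 1 and 9 without line 1 replicate 2. Measured against line 2 alone, TRIM33-KO had 1 member called without and 1 with DOX, Bst2 in both (1.51% and 3.4% of all genes called), and against line 1 alone it had 12 and 11 (40.7% and 42.9%). For TRIM24-KO the counts were 13 and 9 against line 1 (33.7% and 32.0%) and 14 and 12 against line 2 (48.0% and 46.7%).

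Bst2, whose protein tethers budding virus at the cell surface, differed in both knockouts whichever WT line was the reference. TRIM24-KO had 34.5 and 34.3 CPM without and 37.4 and 33.4 with DOX. TRIM33-KO had 9.99 and 7.30 without and 11.8 and 10.3 with DOX. WT pLV2 line 1 had 21.4 and 17 without and 22.3 and 20.9 with DOX, and line 2 had 15.4 and 15.7 without and 19.9 and 16.8 with DOX. The 4 libraries labelled TRIM24-KO lay above, and the 4 of TRIM33-KO below, all 8 WT pLV2 libraries.

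Against the mean of both WT lines, Bst2 differed without DOX by 0.99 ± 0.11 (adjusted p = 2.27e-06) in TRIM24-KO and by -0.999 ± 0.13 (adjusted p = 5.44e-05) in TRIM33-KO, and with DOX by 0.84 ± 0.12 and -0.84 ± 0.14 (edgeR). For TRIM33-KO without DOX it differed by -1.15 from line 1 (adjusted p = 1.2e-05) and by -0.85 from line 2 (adjusted p = 0.0043). The values of 0.99 and -0.999 lie just short of the log2 difference of 1 by which members were chosen to be given in every library, so Bst2 was added to those after its values were seen.

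Tmem173, the gene of the DNA pathway's adaptor STING, was higher in the line labelled TRIM24-KO. It had 5.65 and 3.71 CPM without and 4.80 and 1.65 with DOX there, against 0.343 and 0.579 without and 0.609 and 0.303 with DOX in WT pLV2 line 1. Line 2 had 1.79 and 1.65 without and 1.07 and 1.04 with DOX, and TRIM33-KO 1.19 and 1.63 without and 1.07 and 1.41 with DOX. Of the TRIM24-KO libraries, replicate 2 with DOX lay within the range of line 2.

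TRIM24-KO exceeded the mean of both WT pLV2 lines by 2.37 ± 0.33 (adjusted p = 2.45e-05) in the libraries without DOX and by 2.28 ± 0.40 (adjusted p = 0.000225) in those with it. It had the same direction against line 1 (3.31 and 2.88) and line 2 (1.43 and 1.68) alone. Without TRIM24-KO with DOX replicate 1, the call with DOX ended (1.23, adjusted p = 0.0911). In the first set, Tmem173 ranged from 0.0657 to 2.61 CPM over the 8 libraries, with replicates of DUXBL-KO with DOX at 0.0657 and 1.20.

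Ifitm1 was lowest in TRIM24-KO, at 20.6 and 27.5 CPM without and 16.1 and 16.6 with DOX. WT pLV2 line 1 had 103 and 106 without and 91.6 and 93.2 with DOX, line 2 had 53.8 and 83.8 without and 41.9 and 60.1 with DOX, and TRIM33-KO 50.7 and 52.1 without and 34.8 and 36.5 with DOX. The TRIM24-KO libraries lay below all others of the pLV2 set, with differences of -1.82 ± 0.16 without and -2.07 ± 0.19 with DOX from the mean of the WT lines (adjusted p = 1.86e-07 and 2.02e-07). Both differences held against either WT line alone. In TRIM33-KO the differences were -0.72 ± 0.15 and -0.95 ± 0.16, and against line 2 alone they were -0.42 (adjusted p = 0.332) and -0.52 (adjusted p = 0.152), not called. In the first set WT had 114 and 72.3 without and 99.7 and 67.4 with DOX, and DUXBL-KO 89.5 and 32.2 without and 81.9 and 29.9 with DOX.

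Oas1a, one of the synthetases that activate RNase L on double-stranded RNA, was likewise lower in TRIM24-KO, at 3.06 and 3.25 CPM without and 2.40 and 0.890 with DOX. The other pLV2 libraries ranged from 3.70 to 6.45 CPM, with 5.76 and 6.11 without and 5.02 and 5.67 with DOX in line 1, 6.45 and 5.70 and then 5.35 and 6.41 in line 2, and 5.22 and 3.70 and then 5.07 and 4.12 in TRIM33-KO. Against the WT mean this was -0.93 ± 0.21 (adjusted p = 0.00217) in the libraries without DOX and -1.66 ± 0.28 (adjusted p = 0.000155) in those with it, and it had the same direction against each WT line. The difference with DOX was -1.20 without TRIM24-KO replicate 2 and -2.66 without replicate 1. In the first set, replicate 1 of each of the 4 groups lay at 7.37 to 7.92 CPM and replicate 2 at 3.28 to 3.83 CPM, so replicates differed there more than conditions. Oas1a belongs to a family of near copies, with the same uncertainty in read assignment as the Ifitm genes. In TRIM24-KO, Stat2 was also lower against either WT line, with a difference of -0.52 ± 0.09 from their mean both without and with DOX, and Irf1 without DOX (-0.54 ± 0.11).

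Rsad2, the gene of the antiviral enzyme viperin, was barely expressed. It had 16 and 20 counts in TRIM24-KO without DOX and 5 and 4 with DOX, 0 and 2 without and 3 and 3 with DOX in WT pLV2 line 1, 3 and 10 without and 2 and 4 with DOX in line 2, and 3 and 0 without and 3 and 2 with DOX in TRIM33-KO. The TRIM24-KO libraries without DOX lay above the rest of the set. Rsad2 passed the count filter only through that group, so its call there, 1 of the 12 in TRIM24-KO without DOX, is a description. In the first set it was untested, with 1 to 16 counts per library.

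Tlr3, Ifit2 and Ifitm3 separated the pLV2 lines into the same pairs, WT line 2 with TRIM33-KO and WT line 1 with TRIM24-KO. Tlr3, the gene of the endosomal receptor for double-stranded RNA, had 3.44 and 2.39 CPM without and 1.68 and 2.09 with DOX in line 2, and 2.43 and 2.69 without and 1.69 and 1.30 with DOX in TRIM33-KO. Line 1 had 0.274 and 0.0644 without and 0.609 and 0.303 with DOX, and TRIM24-KO 0.120 and 0.348 without and 0.248 and 0.635 with DOX. All 8 libraries of the first pair lay above all 8 of the second.

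Tlr3 differed between line 2 and line 1 by 4.08 ± 0.52 without DOX (adjusted p = 1.31e-05). For TRIM33-KO the difference was 1.84 ± 0.36 from the WT mean (adjusted p = 0.00153) and 3.88 from line 1. From line 2 it was -0.20 (adjusted p = 0.888), so no difference from that line was shown. WT had 1.24 and 0.729 without and 0.900 and 0.930 with DOX, and DUXBL-KO 0.969 and 0.695 without and 0.986 and 0.382 with DOX.

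Ifit2, a member of the RNA-binding IFIT family, showed the same order at 3.10 and 1.53 CPM without and 2.44 and 2.01 with DOX in line 2, and 1.54 and 2.26 without and 1.60 and 1.30 with DOX in TRIM33-KO. Line 1 had 0.412 and 0.45 without and 0.609 and 1.06 with DOX, and TRIM24-KO 0.240 and 0.232 without and 0.745 and 0.127 with DOX. Line 2 exceeded line 1 by 2.43 ± 0.48 without DOX (adjusted p = 0.000774), and TRIM24-KO differed from the WT mean by -2.06 ± 0.57 without (adjusted p = 0.00809) and -1.45 ± 0.54 with DOX (adjusted p = 0.0399). Against line 1 alone TRIM24-KO was not called (-0.85 and -0.75; adjusted p = 0.404 and 0.405). The difference with DOX was -3.36 without TRIM24-KO replicate 1 and -0.85 without replicate 2, where the call ended (adjusted p = 0.267).

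Of these TRIM24-KO differences in Ifit2, the one without DOX ended when either TRIM24-KO library was left out. The one with DOX ended without TRIM24-KO replicate 2, line 1 replicate 2 or line 2 replicate 1, all with DOX, with DESeq2 and with only the compared groups. Across these losses the adjusted p with DOX reached 0.267 and without DOX 0.0609. WT had 1.94 and 2.00 without and 1.68 and 2.19 with DOX, and DUXBL-KO 0.700 and 1.28 without and 1.45 and 1.42 with DOX.

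Ifitm3 went the other way, with 104 and 103 CPM without and 85.3 and 89.3 with DOX in line 1 and 79.9 and 75.9 without and 72.6 and 64.6 with DOX in TRIM24-KO. Line 2 had 24.1 and 27.7 without and 23.5 and 19.5 with DOX, and TRIM33-KO 23.1 and 27.4 without and 21.3 and 19.5 with DOX. All 8 libraries of line 1 and TRIM24-KO lay above the other 8. WT had 139 and 84.9 without and 101 and 84.1 with DOX, and DUXBL-KO 62.7 and 79.8 without and 54.3 and 58.7 with DOX.

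Line 2 differed from line 1 in Ifitm3 by -2.00 ± 0.10 without DOX (adjusted p = 1.16e-09). TRIM33-KO differed from the WT mean by -1.03 ± 0.09 and -1.08 ± 0.10 without and with DOX, and from line 2 by -0.03 and -0.07, not called. TRIM24-KO differed from the WT mean by 0.59 ± 0.08 and 0.67 ± 0.09, and from line 1 by -0.41 and -0.34, the opposite direction. The fibroblast sums given above showed the same pairs, with 153 to 188 CPM in line 2 and TRIM33-KO and 71.4 to 122 CPM in line 1 and TRIM24-KO. Those sums were led by Vim, and how far they follow fibroblast content was not tested.

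**Figure D5:**
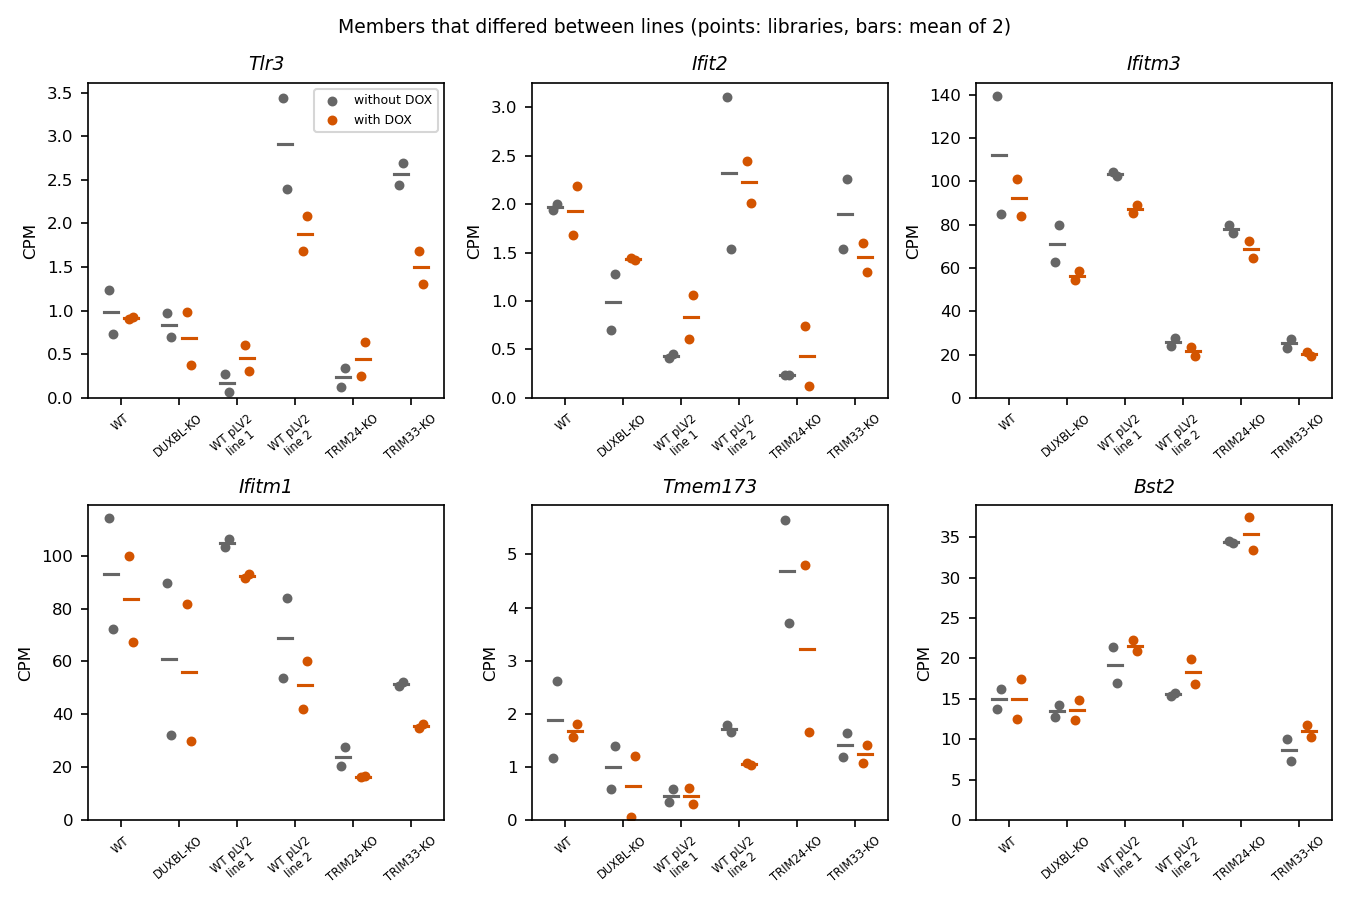
CPM of Tlr3, Ifit2, Ifitm3, Ifitm1, Tmem173 and Bst2 (vertical axes from 0) in each line, without DOX (gray) and with DOX (orange). Points are libraries and bars are means of 2; Tlr3, Ifit2 and Ifitm3 pair WT pLV2 line 2 with TRIM33-KO, and Bst2 is highest in TRIM24-KO and lowest in TRIM33-KO.

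Some values carry a limit from the annotation. In GENCODE M21, 14 members overlap another annotated gene, 9 of them a protein-coding one. Among the members called with DOX, those that overlap a protein-coding gene were Irf1, with Gm17334 on the opposite strand, Irf9, with Rnf31 on the same strand, Adar, with Chrnb2 on the opposite strand, and Ifitm2, with Gm45717 on the same strand. Libraries were strand-specific, but whether the counting used strand is not given in the sources used here.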

How the data were processed

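Each library has a deposited table of raw counts of genes and of repeat subfamilies, per the file headers. The submitters' processing notes name bcl2fastq 2.20.0, cutadapt 1.18, STAR 2.7.6a and the build mm10; the counting tool, its annotation and the treatment of multiply matching reads are not given in the sources used here. Groups follow the sample titles. All 24 libraries were used.

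Each set was fitted with edgeR 4.0.16 (R 4.3.3): 1 mean per group, TMM factors from gene counts, filterByExpr, and glmQLFTest, 2-sided. P-values were adjusted by Benjamini-Hochberg within each of 17 contrasts, apart for genes and repeats, at a threshold of 0.05. CPM use effective library sizes, and CPM per kb the summed exon length. Errors are SE. Alternatives were DESeq2 1.42.0, other scalings and filters, a replicate block, only the compared groups, each WT pLV2 line as reference, and leaving out each library. The fits were tested on simulated data.

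Members called in a DOX effect or a knockout contrast with an absolute log2 difference of at least 1 (at most 16), and those called in at least 3 DOX effects, are given in every library and the others by range and count, with Ifnb1, Dux and MERVL-int, and up to 8 pathway genes called in most DOX effects. A gene that the rule names is not reported here. The members and lists were chosen with earlier results of these data known. The contrasts between the WT pLV2 lines were added after seeing the data. Promoter windows come from RefSeq (GRCm38.p6), with those of a whole chromosome left out.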

Additional observations from a re-analysis of the deposited data

Results flagged for a closer look

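The DOX effect on 2 named features differed between lines by a test of the difference itself (interaction, edgeR). The rise of MERVL-int was larger in TRIM33-KO than in the mean of both WT pLV2 lines by 1.44 ± 0.19 on the log2 scale (adjusted p = 0.000185 over 965 repeat subfamilies). MERVL-int rose by 9.49 in TRIM33-KO, against 7.06 in line 1 but 9.04 in line 2 of WT pLV2; the difference from line 2 alone was not tested. The rise was larger in WT pLV2 line 2 than in line 1 by 1.98 ± 0.22 (adjusted p = 6.96e-05). The DOX effect on Socs3, a feedback inhibitor gene, differed between line 2 and line 1 by -0.62 ± 0.10 (adjusted p = 0.0115).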

How the results depend on the processing

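The MERVL-int rise was called in every line under all alternatives, with log2 fold changes of 6.11 to 7.32 in WT and 9.35 to 9.68 in TRIM33-KO as the lowest and highest ranges. The count of members called with DOX stayed 0 in WT and DUXBL-KO throughout, and was 0 for the 4 interactions. For the other DOX effects the count moved by over 1.5 times as follows. In WT pLV2 line 1 (3 called) it was 5 with only the compared groups. In line 2 (5 called) it was 9 with no count filter, 9 with library sizes that include repeats, and 2 with only the compared groups. In TRIM24-KO (5 called) it was 3 with DESeq2 and 2 with only the compared groups. Leaving out 1 library gave 2 to 3 in line 1, 3 to 6 in line 2, 1 to 7 in TRIM24-KO and 5 to 10 in TRIM33-KO (9 called). The lowest values came without line 2 without DOX replicate 2 or with DOX replicate 1 (3 each), without TRIM24-KO without DOX replicate 1 (1), replicate 2 (3) or with DOX replicate 2 (2), and without TRIM33-KO with DOX replicate 1 (5).

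Against WT, DUXBL-KO had 2 without and 3 with DOX with no count filter (0 otherwise). TRIM33-KO with DOX (5 called) had 8 with no count filter, 11 against line 1 and 1 against line 2; without DOX (8 called) it had 1 against line 2. Leaving out 1 library gave 9 to 14 and 7 to 11 for TRIM24-KO without and with DOX, 6 to 10 and 4 to 5 for TRIM33-KO, and 7 to 10 for line 2 against line 1 (14 called), lowest without line 1 replicate 1 (7) or 2 (9). Against line 1 alone, Ifitm3 in TRIM24-KO reversed to -0.41 without and -0.34 with DOX. Against line 2 alone Tlr3 in TRIM33-KO without DOX went to -0.20 and was not called. In these 3 the choice of the reference line made the difference; for the other moved values the cause was not tested. "Only the compared groups" is the whole first set for the DUXBL-KO interaction and gave no separate value.

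The counts over all genes behind the percentages moved most in the first set. The DOX effect in WT (538 genes) had 1083 with no count filter, 929 with the replicate block, 1 with only the compared groups, 117 without WT without DOX replicate 1 and 2 without replicate 2. That in DUXBL-KO (889) had 1501 with no filter and 1536 with the block. DUXBL-KO against WT had 7 without and 13 with DOX, and 545 and 837 with no filter, 402 and 459 with the block, and 177 and 172 with DESeq2. With only the compared groups, line 2 had 2740 (4788) and TRIM24-KO 1789 (2942). Against line 2 alone TRIM33-KO had 273 without (4261) and 615 with DOX (4809), and against line 1 alone 7350 and 7759. The interactions of TRIM24-KO, TRIM33-KO and line 2 (70, 100 and 44) had 224, 326 and 240 with no filter.

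With the replicate block, the DOX counts were 0, 0, 3, 6, 6 and 9 in WT, DUXBL-KO, line 1, line 2, TRIM24-KO and TRIM33-KO, and no count of members moved by over 1.5 times. Deviations of same-numbered libraries from their group means correlated at 0.276 to 0.596 over all pairs of groups in the first set and at -0.06 to 0.249 in the pLV2 set. Same-numbered libraries of the first set thus deviated together, as Oas1a shows, and Ddx58, Irf1 and Eif2ak2 were lower and Stat2 higher with DOX in 4 of 4 same-numbered pairs there, picked after their values were seen, though the block called none of them. The labels do not say that a number marks a shared batch, and with 2 libraries per group the numbers were not treated as pairs. With 2 libraries per group and 3 counts as the floor, small changes in the 10 lowest members may be missed at this depth. How large a change would be detected was not tested.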
